A study of Mus musculus with 6 samples.

Results

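Type I interferon-stimulated genes were followed in 6 tumours grown under the skin from H22 cells, a cell line of mouse hepatocellular carcinoma. The members were 36 genes listed by name, among them the subunits of the receptor, the factors that transmit its signal, and antiviral effectors. All 36 had a row among the 20482 genes of the count table and all 36 passed the filter on low counts, with at least 21 reads in every tumour. The 3 lenvatinib-resistant tumours came from mice treated with lenvatinib, a drug that blocks several receptor tyrosine kinases, at a daily dose of 100 mg/kg into the peritoneum, given 2 times a week over 2 cycles. Control mice gave the 3 lenvatinib-sensitive tumours. All hosts were male C57BL/6 mice, 6 weeks old at injection, labelled wild type, and the series calls the model syngeneic. Exposure to the drug and resistance cannot be told apart in this design. The labels also disagree on treatment: the treatment field calls all 6 tumours untreated, and the protocol mentions lenvatinib beside its solvent for the control mice.

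Type I interferons are secreted when cells sense foreign or misplaced nucleic acid. They bind a receptor made of IFNAR1 and IFNAR2, whose kinases activate transcription factors of the STAT family. STAT2 and IRF9 are parts of the complex ISGF3, which binds interferon-stimulated response elements in the promoters of many genes, the interferon-stimulated genes. Interferon gamma, made mainly by T cells and natural killer cells, induces an overlapping set. In tumours, both malignant and host cells can express these genes.

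Of the 36 members, 34 were lower in resistant tumours, and the median log2 fold change was -0.82. None passed at an adjusted p under 0.05 in edgeR's quasi-likelihood test over 14392 genes, where 0% of all genes tested passed and the smallest adjusted p of a member was 0.510. At an unadjusted p under 0.05, 7 members (19.4%) were lower, against 5.73% of all genes tested, and 1 member was higher, against 4.02%. The 7 were Zbp1, Ifit3, Mx2, Cmpk2, Dtx3l, Xaf1 and Ifi44, and the member that was higher was Bst2. DESeq2 and edgeR's exact test also called 0 members at an adjusted p under 0.05, where they called 0.571% and 0.292% of all genes they tested. At an unadjusted p under 0.05, DESeq2 counted 15 members lower, against 6.57% of the genes it tested, which were not filtered on low counts. At that threshold the exact test counted 12 members lower, against 968 of 14392 genes. Limma counted 5 members lower on voom values, against 487 of 14392 genes, and 3 on log2(FPKM + 1), against 340 of 14392 genes. Over all genes tested, 52.7% were lower and the median log2 fold change was -0.02.

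A pair of tumours set most of this difference. Sensitive tumour 2 had the highest value of the 6 in 33 of 36 members, against 32.6% of all genes tested, and resistant tumour 1 had the lowest in 29, against 24.4%. The same tumours were the ends of the first principal component, the axis of largest variance over all genes tested (58.1%). Sensitive tumour 2 lay there at -109 and resistant tumour 1 at 83.4, with the other tumours from -23.2 to 26.6. The median of the members' log2 CPM (counts scaled to a common library size), each centred on its mean over the 6 tumours, stood at -1.07 in resistant tumour 1, -0.02 in resistant tumour 2 and -0.14 in resistant tumour 3, against 0.26, 1.18 and -0.14 in sensitive tumours 1 to 3. Sensitive tumour 3 thus lay level with resistant tumours 2 and 3. Leaving out sensitive tumour 2 gave a median log2 fold change of -0.41 with 31 of 36 members lower, and leaving out resistant tumour 1 gave -0.48 with 33 lower. In each of these fits no member lay lower at an unadjusted p under 0.05. Without both tumours the median was -0.11, with 25 members lower and 11 higher. In 9 of 36 members (25%) all 3 resistant tumours lay below all 3 sensitive tumours, against 7.54% of all genes tested, and in 1 they lay above, against 8.41%.

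**Figure D1:**
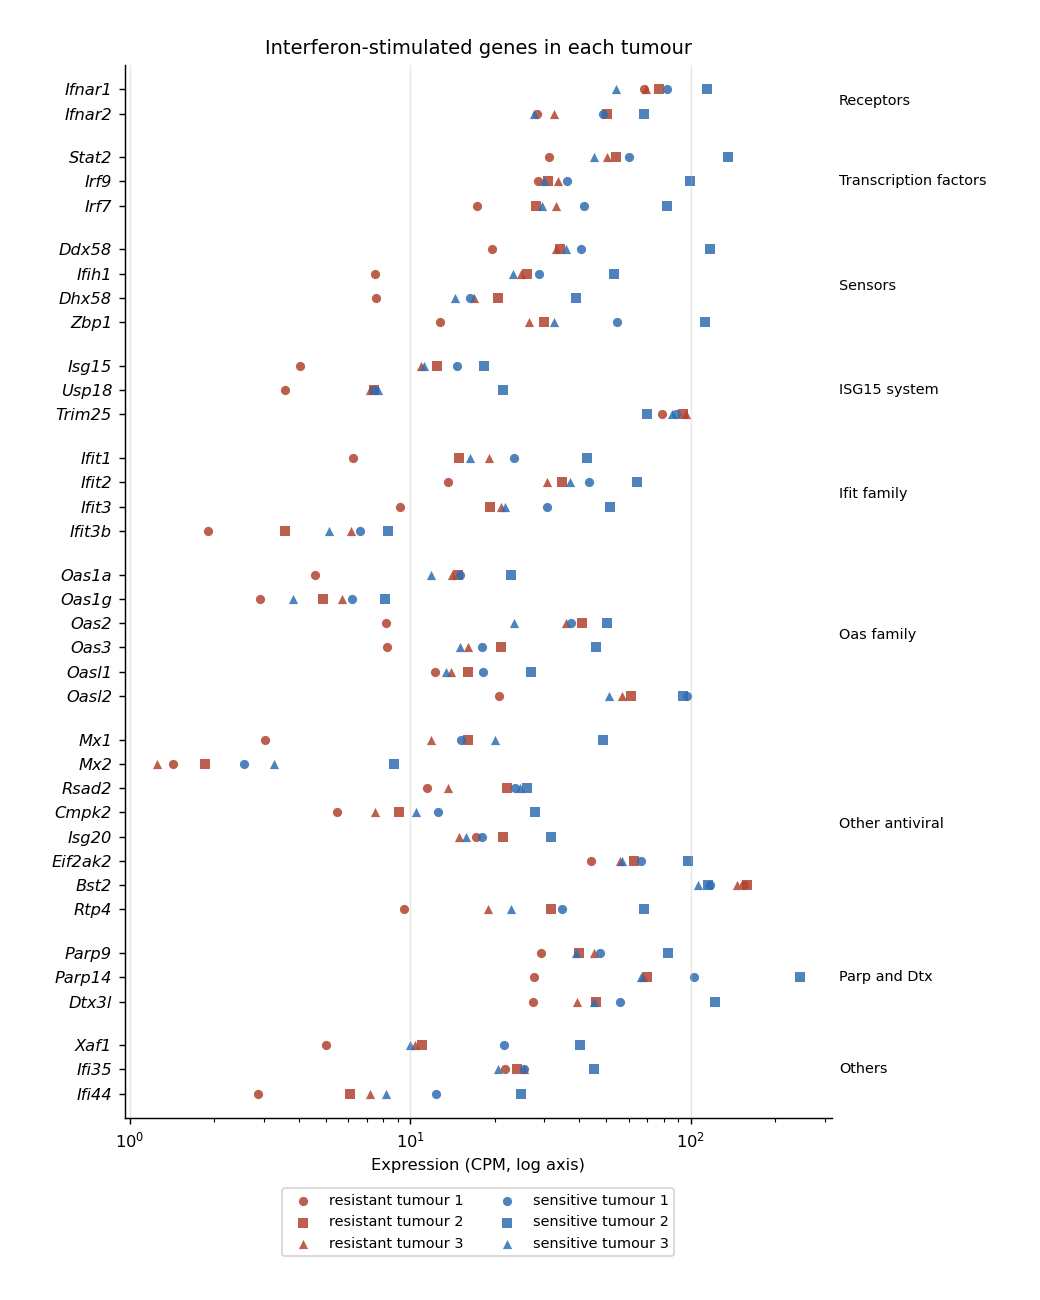
Expression of the 36 members in each tumour in CPM (log axis), by role, with resistant tumours in red and sensitive tumours in blue. Sensitive tumour 2 (blue squares) is the highest point in 33 members and resistant tumour 1 (red circles) the lowest in 29, while Bst2 has all 3 resistant tumours on the right.

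The response element can be read in the promoters of some members, and these are shown for members that stood on either side. The core searched was GAAANNGAAA on both strands, with overlapping copies counted, in 300 bases around each RefSeq start (250 before and 50 after, GRCm38.p6). It was found for 13 of the 27 members that matched the promoter table (48.1%), against 3.99% of the 27025 genes in that table. By window, 13 of 31 member windows held it (41.9%), against 3.44% of 32851 windows. Of the 13 members with the core, 12 were lower in resistant tumours, as were all matched members without it except Trim25. In Ddx58, Ifih1 and Eif2ak2 the only copy lay after the start. The median log2 fold change was -0.79 for members with the core and -0.82 for the matched members without it. The 250 bases before the start are given 5′ to 3′ on the gene's strand for Isg15 (chr4:156200819-156201068, minus strand) and Ifit3 (chr19:34583279-34583528, plus strand), which were lower, and for Bst2 (chr8:71537473-71537722, minus strand) and Trim25 (chr11:88999153-88999402, plus strand), which were not. Capitals mark each copy of the core, and adjoining capitals are copies that overlap.
Isg15: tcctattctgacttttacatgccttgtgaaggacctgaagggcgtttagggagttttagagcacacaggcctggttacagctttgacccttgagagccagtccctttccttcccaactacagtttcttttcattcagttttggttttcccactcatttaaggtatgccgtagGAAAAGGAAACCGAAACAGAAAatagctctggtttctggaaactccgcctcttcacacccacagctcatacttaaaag
Ifit3: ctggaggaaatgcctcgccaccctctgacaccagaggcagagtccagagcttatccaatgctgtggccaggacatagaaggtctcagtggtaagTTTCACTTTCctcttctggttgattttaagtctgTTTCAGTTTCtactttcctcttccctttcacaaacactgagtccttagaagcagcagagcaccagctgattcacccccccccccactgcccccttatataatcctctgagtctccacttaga
Bst2: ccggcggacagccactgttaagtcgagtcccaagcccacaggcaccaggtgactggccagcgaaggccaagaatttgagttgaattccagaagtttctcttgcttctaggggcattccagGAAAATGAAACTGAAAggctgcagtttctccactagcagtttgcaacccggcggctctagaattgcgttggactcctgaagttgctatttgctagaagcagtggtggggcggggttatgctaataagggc
Trim25: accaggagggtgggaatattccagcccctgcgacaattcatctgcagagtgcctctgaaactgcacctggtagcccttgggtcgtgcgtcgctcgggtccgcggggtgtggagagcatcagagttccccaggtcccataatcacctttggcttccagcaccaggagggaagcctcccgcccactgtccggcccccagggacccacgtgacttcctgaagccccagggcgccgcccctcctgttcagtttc
Isg15 holds 3 overlapping copies, Bst2 holds 2 overlapping copies, Ifit3 holds 2 separate copies on the other strand, and the Trim25 window holds none. Bst2, which stood higher in resistant tumours, thus has the same core as members that stood lower.

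The receptor subunits differed little between groups. Ifnar1 (ENSMUSG00000022967, chromosome 16, 91485238 to 91507441 in GRCm38) had 68.4, 77.0 and 69.5 CPM in resistant tumours 1 to 3, against 82.2, 114 and 54.0 CPM in sensitive tumours 1 to 3. Ifnar2 (ENSMUSG00000022971, chromosome 16, 91372783 to 91405589) had 28.2, 50.3 and 32.6 CPM in resistant tumours, against 48.5, 68.0 and 27.6 CPM in sensitive tumours. In both, sensitive tumour 2 was highest and sensitive tumour 3 lowest, so that the groups overlapped over the whole resistant range. Their log2 fold changes were -0.22 ± 0.26 and -0.37 ± 0.37 (SE; adjusted p = 0.756 and 0.703, edgeR), and that of Ifnar1 was 0.07 without sensitive tumour 2.

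The transcription factors of the pathway had similar log2 fold changes, from -0.97 to -0.83. Stat2, a part of ISGF3 (ENSMUSG00000040033, chromosome 10, 128270559 to 128292849), stood at 31.3, 54.0 and 50.3 CPM in resistant tumours, against 60.4, 136 and 45.2 CPM in sensitive tumours. Irf7, which amplifies the production of interferon alpha (ENSMUSG00000025498, chromosome 7, 141262706 to 141266481), stood at 17.3, 28.1 and 33.1 CPM in resistant tumours, against 41.5, 82.5 and 29.4 CPM in sensitive tumours. For each, sensitive tumours 1 and 2 lay above all resistant tumours and sensitive tumour 3 lay within their range. The log2 fold change was -0.83 ± 0.44 for Stat2 (adjusted p = 0.529, edgeR) and -0.97 ± 0.43 for Irf7 (adjusted p = 0.515, edgeR). Irf9, the DNA-binding part of ISGF3, had one of -0.83 ± 0.46, and 99.6 CPM in sensitive tumour 2 against 28.6 to 36.1 CPM in the other 5 tumours.

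Sensors of nucleic acid were lower in 4 of 4 members. Zbp1, which binds Z-form nucleic acid and can start necroptosis (ENSMUSG00000027514, chromosome 2, 173206612 to 173218923), stood at 12.8, 30.0 and 26.4 CPM in resistant tumours, against 54.5, 113 and 32.5 CPM in sensitive tumours. The groups did not overlap, though resistant tumour 2 and sensitive tumour 3 lay close together. Its log2 fold change was -1.53 ± 0.52 (adjusted p = 0.510, edgeR), and -0.92 without sensitive tumour 2. Ddx58, which encodes RIG-I, a sensor of viral RNA ends, had one of -1.16 ± 0.50, also without overlap. Ifih1, encoding the long-RNA sensor MDA5, and Dhx58, encoding their regulator LGP2, had log2 fold changes of -0.85 ± 0.53 and -0.63 ± 0.51, with overlap.

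ISG15 is a ubiquitin-like protein that is joined to other proteins after interferon treatment. Isg15 (ENSMUSG00000035692, chromosome 4, 156199424 to 156200818) had 4.04, 12.5 and 10.9 CPM in resistant tumours, against 14.6, 18.4 and 11.2 CPM in sensitive tumours. Resistant tumour 1 was far below the other 5, and resistant tumour 2 lay above sensitive tumour 3. The log2 fold change was -0.69 ± 0.45 (adjusted p = 0.580, edgeR). Usp18, which removes ISG15 and also dampens signalling at the receptor (ENSMUSG00000030107, chromosome 6, 121245906 to 121270917), had 3.57, 7.40 and 7.19 CPM in resistant tumours, against 7.44, 21.4 and 7.65 CPM in sensitive tumours. All resistant values lay below all sensitive ones, but 4 of the 6 tumours fell between 7.19 and 7.65 CPM. Its log2 fold change was -1.004 ± 0.53 (adjusted p = 0.529, edgeR), and -0.32 without sensitive tumour 2. Trim25, a ubiquitin ligase that acts on RIG-I (ENSMUSG00000000275, chromosome 11, 88999376 to 89020293), had 78.9, 94.0 and 96.5 CPM in resistant tumours, against 88.3, 70.0 and 85.7 CPM in sensitive tumours. It was the member in which sensitive tumour 2 was lowest, the groups overlapped, and the log2 fold change was 0.14 ± 0.15 (adjusted p = 0.718, edgeR).

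The Ifit genes, whose proteins bind viral RNA and block its translation, were lower in 4 of 4 members, with log2 fold changes from -1.08 to -0.79. Ifit3 (ENSMUSG00000074896, chromosome 19, 34583531 to 34588731), whose promoter is given above, stood at 9.21, 19.2 and 20.99 CPM in resistant tumours, against 30.8, 51.4 and 21.8 CPM in sensitive tumours. The groups did not overlap, with resistant tumour 3 just under sensitive tumour 3. The log2 fold change was -1.08 ± 0.42 (adjusted p = 0.510, edgeR), and -0.68 without sensitive tumour 2. Ifit2 was likewise without overlap, at 26.4 ± 11.3 CPM in resistant and 48.3 ± 14.4 CPM in sensitive tumours (SD, n = 3 each). Ifit3b lies on the same strand as Ifit3, 24439 bases on, and their transcripts are identical at 98.0% of 1697 aligned bases, so that the split of reads between them is uncertain. Its own log2 fold change was -0.79 ± 0.48, with overlap.

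Several, though not all, proteins of the Oas family make an oligoadenylate that switches on RNase L, an enzyme that degrades RNA. The 6 Oas members were all lower, with a median log2 fold change of -0.52, and in none were the groups apart. Oas1a (ENSMUSG00000052776, chromosome 5, 120896256 to 120907521) had 4.58, 14.7 and 14.03 CPM in resistant tumours, against 15.1, 22.9 and 11.8 CPM in sensitive tumours. Oasl2 (ENSMUSG00000029561, chromosome 5, 114896936 to 114912234) had 20.7, 61.4 and 56.9 CPM in resistant tumours, against 97.1, 93.6 and 51.3 CPM in sensitive tumours. Resistant tumour 1 was lowest in each, and sensitive tumour 3 came next, below resistant tumours 2 and 3. Their log2 fold changes were -0.58 ± 0.48 and -0.80 ± 0.44 (adjusted p = 0.658 and 0.537, edgeR). Without resistant tumour 1 the log2 fold change of Oas2 was 0.06, against -0.39 ± 0.58 with it. Oas1a and Oas1g transcripts are identical at 97.5% of 1860 aligned bases, which makes the split of reads between them uncertain as well.

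Bst2, or tetherin, holds budding enveloped virus at the cell surface and in mice also marks plasmacytoid dendritic cells. It was the member with the highest level per length, a mean of 174 FPKM over the 6 tumours, followed by Rtp4 at 19.4 FPKM, Isg15 at 15.6 FPKM and Trim25 at 14.7 FPKM. The lowest was Mx2 at 0.62 FPKM. Bst2 (ENSMUSG00000046718, chromosome 8, 71534255 to 71537456) had 155, 159 and 146 CPM in resistant tumours, against 117, 115 and 106 CPM in sensitive tumours. All resistant values lay above all sensitive ones, and sensitive tumour 2 and resistant tumour 1 did not stand out. The means were 153 ± 6.70 CPM in resistant and 113 ± 5.59 CPM in sensitive tumours (SD, n = 3 each). The log2 fold change was 0.44 ± 0.11, the smallest SE of any member (adjusted p = 0.510, edgeR). It was 0.45 without both sensitive tumour 2 and resistant tumour 1, and 0.24 with a correction for gene length. With that correction 0 members, and so not Bst2, were higher at an unadjusted p under 0.05 (edgeR). The Bst2 transcript is short, at 764 bases, and the part of length was not tested.

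The remaining antiviral effectors were lower in 7 of 7 members. The Mx genes encode dynamin-like GTPases that trap viral components, and many inbred mouse strains carry an Mx1 allele with no functional protein. Mx1 averaged 10.3 ± 6.63 CPM in resistant and 27.9 ± 17.98 CPM in sensitive tumours (SD, n = 3 each). With a log2 fold change of -1.43 ± 0.68, Mx1 had the largest SE of any member. Mx2 had the most negative log2 fold change of the 36, -1.68 ± 0.56, with 1.51 ± 0.31 CPM in resistant and 4.86 ± 3.41 CPM in sensitive tumours (SD, n = 3 each). The gene annotation used here types Mx2 as a polymorphic pseudogene. It had 24, 31 and 21 reads in resistant tumours, against 41, 147 and 57 reads in sensitive tumours. Reads common to the neighbours Mx1 and Mx2 may be counted for either, since 919 bases of their transcripts align with 94.9% identity. Cmpk2, a nucleotide kinase, and Rsad2, which encodes viperin and makes a chain-ending nucleotide, are neighbours on chromosome 12 in opposite directions. Cmpk2 had a log2 fold change of -1.20 ± 0.44 and Rsad2 one of -0.65 ± 0.28, both without overlap. In Rsad2 the sensitive tumours were close to each other, at 24.7 ± 1.23 CPM, against 15.7 ± 5.603 CPM in resistant tumours (SD, n = 3 each), and its log2 fold change was -0.61 without sensitive tumour 2. Isg20, an RNA exonuclease, Eif2ak2, the RNA-activated kinase PKR that stops translation, and Rtp4, a receptor chaperone, had log2 fold changes of -0.30 ± 0.32, -0.44 ± 0.24 and -1.06 ± 0.54, with overlap.

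PARP9 and DTX3L form a complex of ADP-ribosylation and ubiquitin ligase activity, and their genes overlap head to head on chromosome 16. Dtx3l (ENSMUSG00000049502, chromosome 16, 35926511 to 35939151) had 27.4, 45.8 and 39.2 CPM in resistant tumours, against 55.9, 122 and 45.1 CPM in sensitive tumours. Parp14, a mono-ADP-ribosyltransferase encoded nearby (ENSMUSG00000034422, chromosome 16, 35832874 to 35871544), had 27.6, 70.0 and 67.4 CPM in resistant tumours, against 103, 245 and 66.4 CPM in sensitive tumours. In each, resistant tumour 2 lay just above sensitive tumour 3. The log2 fold changes were -0.99 ± 0.41 for Dtx3l and -1.33 ± 0.56 for Parp14 (adjusted p = 0.510 each, edgeR), and -0.57 ± 0.32 for Parp9. Without sensitive tumour 2 that of Parp14 was -0.62 and that of Dtx3l -0.43. Reads from the stretch where Parp9 and Dtx3l overlap could be counted for either gene unless counting used the strand.

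Of the last 3 members, Ifi44 (ENSMUSG00000028037, chromosome 3, 151730922 to 151749960) had 2.85, 6.09 and 7.19 CPM in resistant tumours, against 12.3, 24.9 and 8.17 CPM in sensitive tumours. The groups did not overlap, and the log2 fold change was -1.49 ± 0.53 (adjusted p = 0.510, edgeR), or -0.93 without sensitive tumour 2. Ifi35, whose protein binds the interferon-induced partner NMI (ENSMUSG00000010358, chromosome 11, 101448407 to 101458698), had 21.7, 23.999 and 25.4 CPM in resistant tumours, against 25.4, 45.1 and 20.6 CPM in sensitive tumours. Its 5 values outside sensitive tumour 2 lay close together, and the log2 fold change was -0.36 ± 0.31 with all tumours (adjusted p = 0.667, edgeR) and 0.04 without that one. Xaf1, which binds the cell death inhibitor XIAP, had a log2 fold change of -1.44 ± 0.55, with sensitive tumour 3 at 9.94 CPM within the range of the resistant tumours, 4.99 to 10.98 CPM.

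**Figure D2:**
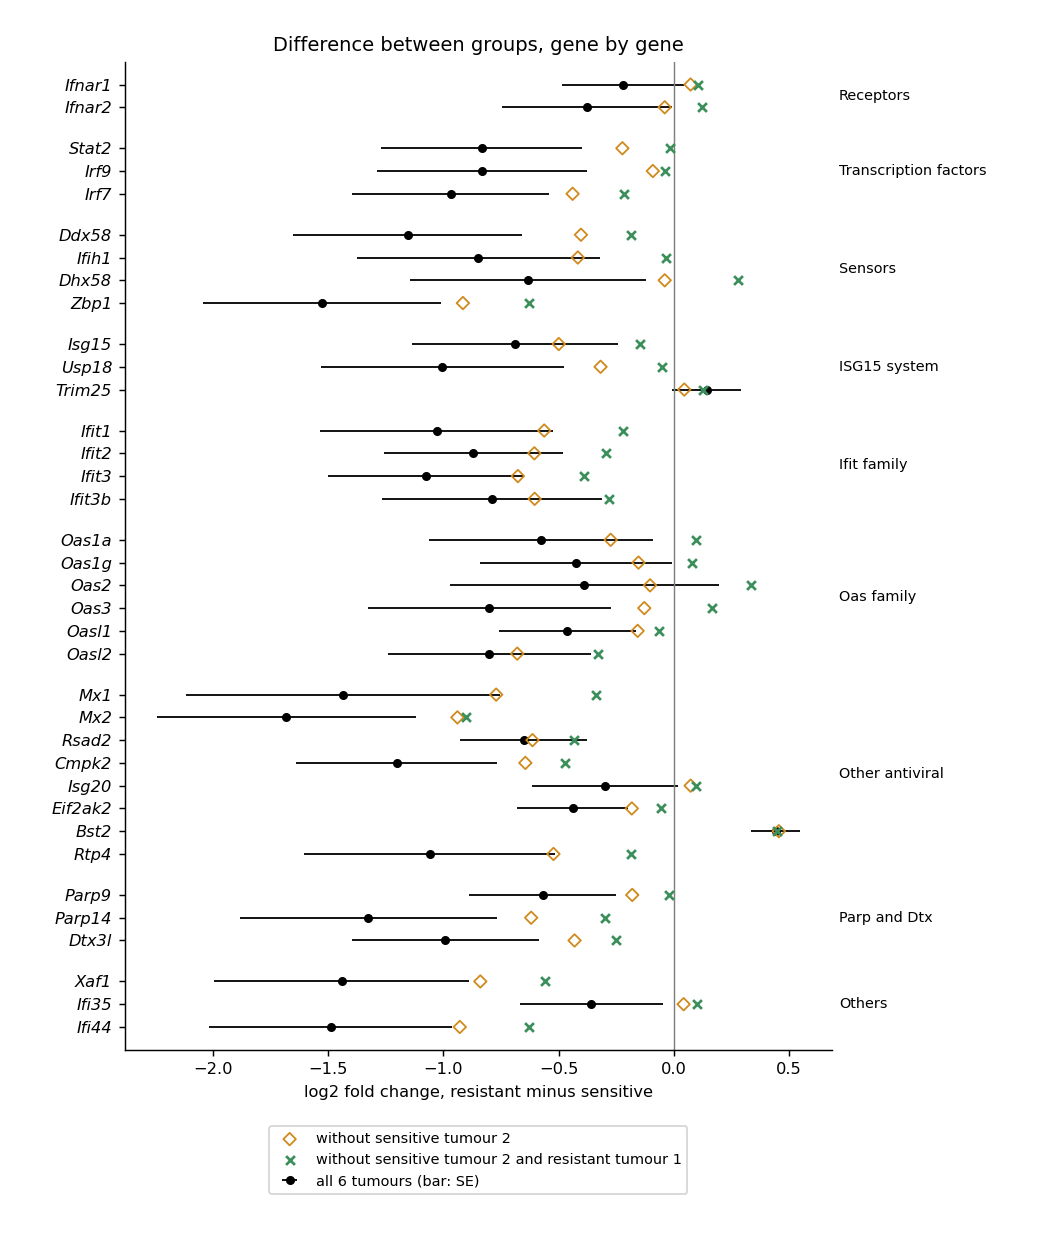
Log2 fold change of each member, resistant minus sensitive, with all 6 tumours (black points, bars are SE), without sensitive tumour 2 (open diamonds) and without sensitive tumour 2 and resistant tumour 1 (green crosses). Most members move towards 0 as the tumours are left out, to a median of -0.11, while Bst2 stays at 0.44 to 0.46.

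Other genes of the interferon pathways gave the setting of the members. Of 18 type I ligand genes listed, 2 had a row here and the rest gave no values. Both were near the limit of detection, did not pass the filter on low counts and were not tested. Ifnb1, which encodes interferon beta, had 2, 1 and 0 reads in resistant tumours, against 0, 5 and 0 reads in sensitive tumours. Ifnab had 0, 3 and 2 reads in resistant tumours, against 0, 0 and 1 reads in sensitive tumours, where 3 reads correspond to 0.171 to 0.186 CPM. Ifng, the gene of interferon gamma, had 5, 1 and 3 reads in resistant tumours, against 17, 26 and 23 reads in sensitive tumours. On the log2 scale it differed by -2.82 ± 0.63 (adjusted p = 0.510, edgeR). For Ifng the groups did not overlap and sensitive tumour 2 did not stand apart. The exact test gave Ifng an adjusted p of 0.0362, and DESeq2 gave 0.144.

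In the list of sensing and signalling genes, 21 of 21 were lower, with a median log2 fold change of -0.69, and 0 were called at an adjusted p under 0.05. Tlr9, an endosomal sensor of DNA, had a log2 fold change of -2.10 ± 0.62, Irf2, a relative of IRF1 that competes with it, one of -0.92 ± 0.27, and Irf1 itself one of -1.06 ± 0.40. Without sensitive tumour 2 the log2 fold change was -1.34 for Tlr9, -0.64 for Irf2 and -0.64 for Irf1. DESeq2 called Tlr9 (adjusted p = 0.0410), and the exact test did not (adjusted p = 0.176). The receptor chains of interferon gamma had log2 fold changes of -0.49 ± 0.30 for Ifngr1 and -0.60 ± 0.29 for Ifngr2, and Il10rb, a chain of the interferon lambda receptor, one of -0.43 ± 0.33. Without sensitive tumour 2 these were -0.15 for Ifngr1, -0.33 for Ifngr2 and -0.05 for Il10rb.

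Inhibitors of the pathways were lower in 8 of 11 tested genes, with a median log2 fold change of -0.30. Nlrc5, a regulator of MHC class I genes, had one of -1.79 ± 0.70, Samhd1, which breaks down deoxynucleotides, one of -0.86 ± 0.35, Ptpn6, a phosphatase of blood cells, one of -1.21 ± 0.52, and Trim24, a nuclear cofactor, one of -0.32 ± 0.17. Without sensitive tumour 2 the log2 fold change was -0.74 for Nlrc5, -0.42 for Samhd1, -0.45 for Ptpn6 and -0.28 for Trim24. A further list of 46 tested interferon-stimulated genes held 44 that were lower, with a median of -0.94. Of these, 11 were lower at an unadjusted p under 0.05, against 5.73% of all genes tested, and 0 were higher, against 4.02%, and none passed edgeR's quasi-likelihood test. The smallest p belonged to Ms4a4c at -1.90 ± 0.48, Ifit1bl1 at -2.45 ± 0.79, Tor3a at -0.81 ± 0.27 and Herc6 at -1.40 ± 0.48 on the log2 scale. Without sensitive tumour 2 the log2 fold change was -1.34 for Ms4a4c, -1.36 for Ifit1bl1, -0.50 for Tor3a and -0.82 for Herc6. Ms4a4c was called by DESeq2 (adjusted p = 0.0156) and not by the exact test (adjusted p = 0.0905).

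**Figure D3:**
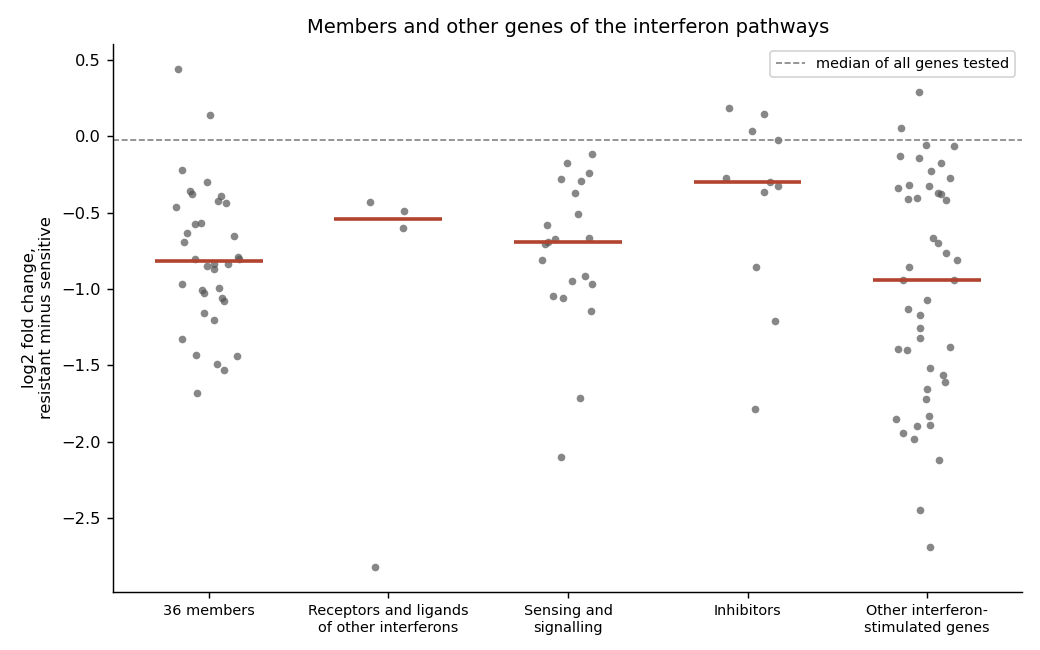
Log2 fold change, resistant minus sensitive, of the 36 members and of 4 other lists of interferon pathway genes, 1 point per gene tested, with the median of each list as a red bar and the median of all genes tested as a dashed line. Medians run from -0.94 for the other interferon-stimulated genes to -0.30 for the inhibitors, and 1 gene, Ifng, lies at -2.82.

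Each tumour is a mixture, and fewer cells of a type cannot be told apart from less RNA per cell. The liver tumour list (12 genes) summed to 863 to 1278 CPM in resistant tumours, against 710.0 to 887 CPM in sensitive tumours, although 7 of its 11 tested genes were lower in resistant tumours. The keratin genes Krt8 and Krt18 made up most of the sum, with Krt8 at 428, 429 and 236 CPM in resistant tumours, against 144, 154 and 191 CPM in sensitive tumours. Alb, the gene of serum albumin, stood at 121, 112 and 120 CPM in resistant tumours, against 167, 198 and 186 CPM in sensitive tumours. The liver transcription factor Hnf4a had 12 to 21 reads in resistant tumours, against 18 to 45 reads in sensitive tumours. Afp and Gpc3, from the same list, leaned higher in resistant tumours, with overlap between groups. Afp stood at 18.84, 16.66 and 22.83 CPM in resistant tumours, against 14.01, 11.46 and 18.56 CPM in sensitive tumours. Gpc3 stood at 5.47, 16.06 and 19.26 CPM in resistant tumours, against 10.1, 9.13 and 3.26 CPM in sensitive tumours.

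Markers of several immune cell types and of endothelium moved with the members. The 13 T cell markers, lower in 13 of 13, summed to 13.1, 12.5 and 39.4 CPM in resistant tumours, against 59.9, 600.2 and 37.6 CPM in sensitive tumours. The 10 B and plasma cell markers summed to 151 to 184 CPM in resistant tumours, against 151 to 12386 CPM in sensitive tumours, the highest being sensitive tumour 2. The 7 endothelial markers summed to 153 to 264 CPM in resistant tumours, against 225 to 554 CPM in sensitive tumours. Like the members, these 3 lists were highest in sensitive tumour 2, as were both dendritic cell lists and the natural killer cell list given below. Those of B and plasma cells, endothelium and both kinds of dendritic cell were lowest in resistant tumour 1. For B and plasma cells this was by little, at 150.9 CPM against 151.1 CPM in sensitive tumour 3. The lists of T cells and natural killer cells were lowest in resistant tumour 2.

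Macrophage markers (10 genes) did not follow the groups, being lower in 4 of 10, with sums of 1076, 2904 and 2205 CPM in resistant tumours, against 2172, 2635 and 1260 CPM in sensitive tumours. Resistant tumour 1 was lowest in this list too, as it was in the 6 fat cell markers, which summed to 49.8, 924 and 709 CPM in resistant tumours, against 2238, 1993 and 673 CPM in sensitive tumours. The 9 plasmacytoid dendritic cell markers, lower in 5 of 5 tested, summed to 26.04 to 51.2 CPM in resistant tumours, against 38.6 to 153 CPM in sensitive tumours, and Smim5 was at 0 in all 3 resistant tumours. Bst2, which these cells also express, stood in the other direction. Conventional dendritic cell markers, lower in 8 of 8, summed to 16.8 to 24.4 CPM in resistant and 21.99 to 159 CPM in sensitive tumours. Natural killer cell markers, also lower in 8 of 8, summed to 63.0 to 80.1 CPM in resistant and 89.9 to 124 CPM in sensitive tumours. For natural killer cells the sums did not overlap between groups. Neutrophil markers (7 genes) summed to 25.1 to 98.3 CPM in resistant tumours, against 28.8 to 96.3 CPM in sensitive tumours. The fibroblast list (7 genes) summed to 1986 to 6532 CPM in resistant tumours, against 1689 to 3877 CPM in sensitive tumours, and the muscle list (7 genes) to 5.05 to 231 CPM in resistant tumours, against 2.28 to 1117 CPM in sensitive tumours. The part of these cells in the members' levels was not tested.

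**Figure D4:**
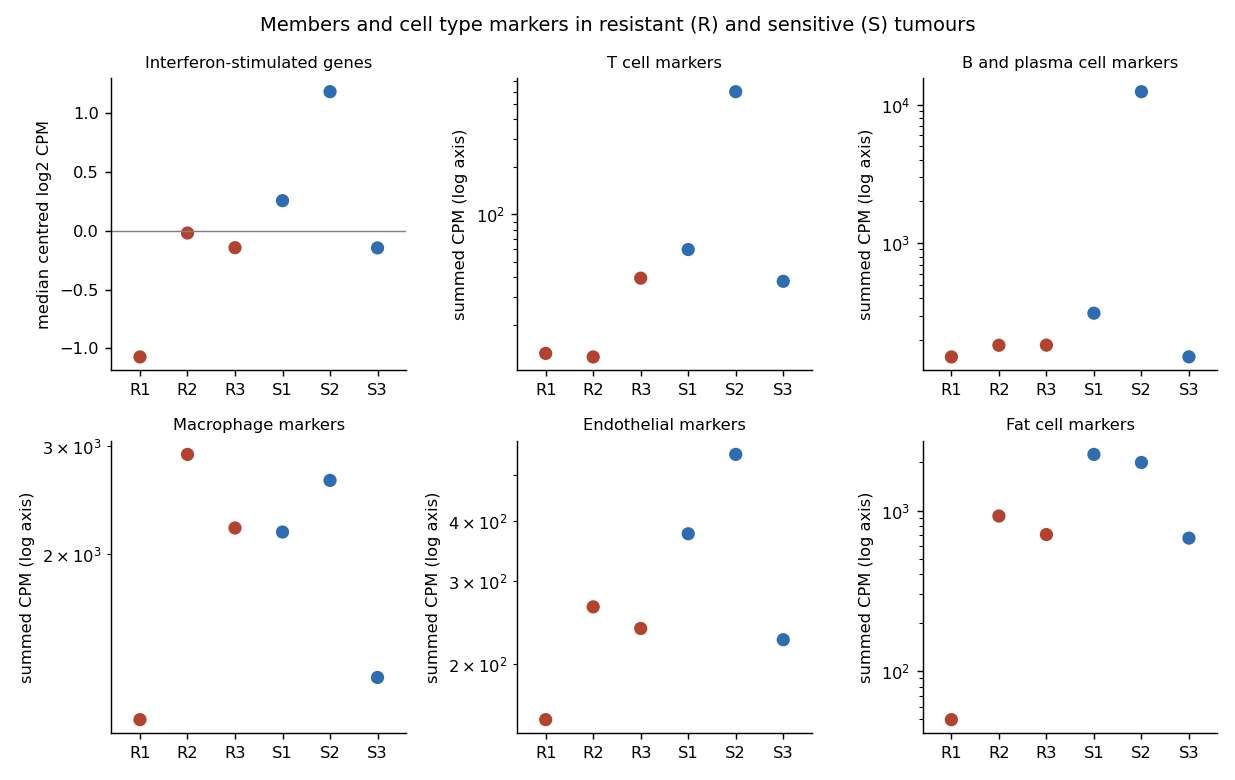
Median centred log2 CPM of the 36 members, and summed CPM (log axes) of 5 lists of cell type markers, in resistant tumours 1 to 3 (R, red) and sensitive tumours 1 to 3 (S, blue). Sensitive tumour 2 is highest for the members and for T cell, B and plasma cell and endothelial markers. Resistant tumour 1 is lowest for the members and for every list shown except T cells, though level with sensitive tumour 3 for B and plasma cells.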

How the data were processed

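RNA from 3 lenvatinib-resistant and 3 lenvatinib-sensitive tumours was sequenced, with groups taken from the sample titles. The authors deposited whole-number read counts per gene and, in a second table, FPKM, which are scaled to gene length and library size, per the file headers. Over 5442 genes with 500 or more counts in each tumour, FPKM were a fixed multiple of the counts per gene and tumour, up to a relative deviation of 9.16e-06. HISAT2, StringTie and edgeR are named, with no versions, per the submitters' processing notes. For genome build, annotation, strandedness and the rule for shared reads, the sources used here give nothing. Total counts ran from 15995403 to 16635385 in resistant tumours and from 17106568 to 17545098 in sensitive tumours. The design text calls the tumours biological replicates.

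Tests on counts used edgeR 4.0.16 (R 4.3.3; filterByExpr, TMM scaling, quasi-likelihood F-test, no block), with Benjamini-Hochberg adjustment over all 14392 genes tested and a threshold of 0.05. Log2 fold changes are resistant minus sensitive, and the SE is the size of the fold change over the square root of F. Values in CPM use TMM-scaled library sizes. On counts simulated from this comparison (14392 genes), 50 genes were altered at each size. They were drawn at random from genes averaging over 50 counts, and each gene varied independently of the others. Of them the test called 5 at 2-fold, 34 at 4-fold, 42 at 8-fold and 45 at 16-fold, beside 5 false calls. Alternatives were other scalings and filters, DESeq2 1.42.0, edgeR's exact test, limma 3.58.1 on voom values and on log2(FPKM + 1) and log2(FPKM + 0.1), a loess gene length correction, a replicate block, and leaving out tumours.

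Members and lists were chosen with earlier results of these data known. Values per tumour are given for the member of each role with the highest mean FPKM, the one with the smallest p, and members whose direction opposes the median. Of each further pathway list, the 4 genes with the smallest p are named, with Ifnb1 and Ifng, except that some results are not reported here. Mx1, Ifnab and others outside the rule were named after their values were seen. Coordinates come from GENCODE mouse release M21 (GRCm38), in which 20355 of 20482 identifiers were found. Promoters are RefSeq sequences (GRCm38.p6), which matched 27 of 36 members. Transcripts were aligned locally with Biopython 1.88, using the longest protein-coding transcript of each gene.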

Additional observations from a re-analysis of the deposited data

How the results depend on the processing

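Under every other scaling, filter, tool and unit tried, with the gene length correction and with the replicate block, 34 of 36 members were lower in resistant tumours, and the members' median log2 fold change lay between -0.85 and -0.55. The smallest in size was that on log2(FPKM + 1), a scale that shrinks differences of low genes. Calls over all genes numbered 0 in edgeR's quasi-likelihood test, where 1404 had an unadjusted p under 0.05, and 115 in DESeq2 (38 higher, 77 lower) and 42 in the exact test (11 higher, 31 lower). At an unadjusted p under 0.05, 579 genes were higher and 825 lower with TMM scaling, 814 higher and 585 lower with library size scaling, and 710 higher and 699 lower with upper quartile scaling.

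Leaving out single tumours gave 631 to 2666 genes at an unadjusted p under 0.05, 0 called genes, members' medians from -1.05 to -0.41 and 31 to 34 members lower. The log2 fold change moved by over 1.5 times or changed sign in 30 of 36 members without sensitive tumour 2, in 13 without resistant tumour 1, and in 1 to 6 without any other tumour. Without sensitive tumour 3, 18 members were lower at an unadjusted p under 0.05, against 11.4% of all genes tested. The log2 fold changes ran from -0.45 to 0.074 for Ifnar1, -0.48 to 0.074 for Isg20 and -0.57 to 0.043 for Ifi35, each highest without sensitive tumour 2, and from -0.75 to 0.0555 for Oas2, highest without resistant tumour 1. Leaving out both these tumours, chosen after seeing the data, gave 743 genes at an unadjusted p under 0.05 and a members' median of -0.11. It turned 9 members positive (Ifnar1 0.10, Ifnar2 0.12, Dhx58 0.28, Oas1a 0.10, Oas1g 0.081, Oas2 0.33, Oas3 0.17, Isg20 0.10 and Ifi35 0.10), and also Il10rb (0.11).

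Nothing in the labels says that replicate numbers pair the tumours. Same-numbered tumours had correlations of 0.05, 0.31 and -0.16 between their deviations from the group means. Resistant tumour 1 correlated best with sensitive tumour 3 (0.50). With 3 tumours per group, such correlations cannot decide whether the tumours were paired. With the replicate block 1120 genes had an unadjusted p under 0.05, the members' median was -0.84, 12 members were lower at that p, against 4.14% of all genes tested, and 0 members were called. In counts simulated from this comparison, the test called 5 of 50 genes altered 2-fold, so a difference of that size mostly went uncalled. Those genes were drawn at random, each with its own spread. The members had a median SE of 0.44, against 0.26 over all genes tested, so the rate is not that of the members.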
